A study of Homo sapiens with 8 samples.

Results

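In NB4 cells, 1079 assembled transcript models without a gene symbol reached at least 0.5 FPKM in at least 1 of 4 groups and had a locus more than 5 kb from that of every RefSeq protein-coding row. FPKM counts fragments scaled to the length of a model and to the mapped fragments of the library. The 1079 models were drawn from 21434 assembled models and from 65986 models of all kinds. Their identifiers begin with TCONS, RefSeq coding rows begin with NM and RefSeq noncoding rows with NR. Since the FPKM values chose the models, their levels are given as a description. Of the 1659 assembled models that reached 0.5 FPKM, the other 580 lay within 5 kb of an NM row.

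NB4 is an established human line from acute promyelocytic leukaemia. It expresses the fusion protein PML-RARA and differentiates when it is given all-trans retinoic acid (ATRA). The cells had received lentiviral vectors with either a scrambled short hairpin RNA (shScr) or a hairpin directed at the transcription factor TFEB (shTFEB), and were kept for 72 h with ethanol as vehicle or with 1 µM ATRA. Hairpin and treatment were crossed into 4 groups, each with 2 samples in the labels. The titles of both shScr ATRA samples also hold the word vehicle, and they were grouped by their treatment field, which gives ATRA. Where 4 values follow each other, their order is shScr without ATRA, shScr with ATRA, shTFEB without ATRA, shTFEB with ATRA. The tables give 1 FPKM per model and group, so no difference below has a replicate check or a p-value, and a difference is described by its size. All 4 groups carry a lentiviral hairpin, and whether each line is a clone or a pool is not given in the sources used here.

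Intergenic long noncoding RNAs are transcripts that lie between protein-coding genes and hold no long open reading frame. They are generally spliced, are made at lower levels than messenger RNAs and tend to be restricted to few cell types. Some of them, such as NEAT1, the RNA that scaffolds the nuclear bodies called paraspeckles, build structures in the nucleus, while many lie near coding genes with which their level varies, and for most no role is known. Retinoic acid acts through nuclear receptors that bind paired copies of a short DNA element, and TFEB binds a short palindromic element shared by many basic helix-loop-helix factors.

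Of the 1079 models, 351 (32.5%) overlapped an NR row, which linked them to 186 distinct noncoding hosts. A further 34 lay within 5 kb of an NR row and 694 (64.3%) were more than 5 kb from NR rows as well. The deposited coordinates are those of hg19, while the sequence table used here is RefSeq's for GRCh38.p14, so no sequence of a model itself is shown. The table held a promoter window, 250 bases before to 50 after the start, for 73 of the 186 hosts. By the sum of FPKM over all TCONS and NR rows at the locus, 32 of the 186 hosts were at least 2-fold higher and 13 lower with ATRA in shScr cells, and 28 and 9 in shTFEB cells. Of all models taken singly, 16.7% were higher and 16.8% lower in shScr cells, and 14.4% and 13.4% in shTFEB cells. In both lines 20 hosts (10.8%) were higher and 6 (3.23%) lower, against 9.99% and 8.96% of all models taken singly, and 12 and 4 of these had a window. The 4 windows below belong to the host with the largest rise, to a neighbouring pair of higher hosts and to a lower host. Capitals mark AGGTCA, an element of retinoid receptor sites, or CACGTG, the palindrome bound by TFEB and related factors, on either strand (on the other strand the first of these reads TGACCT). Each window is written 5′ to 3′ on the strand of its gene.
LINC01094: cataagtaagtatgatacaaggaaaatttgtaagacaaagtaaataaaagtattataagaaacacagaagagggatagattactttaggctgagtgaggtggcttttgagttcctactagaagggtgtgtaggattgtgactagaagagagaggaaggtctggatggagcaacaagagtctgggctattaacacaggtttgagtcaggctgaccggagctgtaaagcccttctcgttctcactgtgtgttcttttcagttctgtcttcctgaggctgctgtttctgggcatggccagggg
HEIH: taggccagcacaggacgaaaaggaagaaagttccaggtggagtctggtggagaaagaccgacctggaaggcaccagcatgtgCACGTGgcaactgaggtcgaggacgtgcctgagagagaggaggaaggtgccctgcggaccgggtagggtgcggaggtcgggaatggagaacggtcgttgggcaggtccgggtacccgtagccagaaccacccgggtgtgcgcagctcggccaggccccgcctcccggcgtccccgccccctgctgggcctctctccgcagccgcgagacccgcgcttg
LINC00847: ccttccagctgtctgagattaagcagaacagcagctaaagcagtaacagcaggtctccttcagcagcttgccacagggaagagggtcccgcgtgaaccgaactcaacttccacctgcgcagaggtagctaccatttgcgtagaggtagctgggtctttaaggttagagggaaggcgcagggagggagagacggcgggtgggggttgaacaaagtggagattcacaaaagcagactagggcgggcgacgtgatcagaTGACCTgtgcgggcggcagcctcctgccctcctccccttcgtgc
FIRRE: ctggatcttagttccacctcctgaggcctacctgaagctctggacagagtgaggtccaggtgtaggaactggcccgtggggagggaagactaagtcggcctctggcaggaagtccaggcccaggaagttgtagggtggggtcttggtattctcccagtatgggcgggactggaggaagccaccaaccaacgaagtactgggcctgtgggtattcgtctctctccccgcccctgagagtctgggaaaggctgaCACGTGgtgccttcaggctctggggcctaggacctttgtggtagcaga

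The LINC01094 window lies at chr4:78645744-78646043 on the plus strand of GRCh38.p14, and none of the searched elements is in it. The HEIH window lies at chr5:180831569-180831868 on the minus strand and holds CACGTG from position -168. The LINC00847 window, at chr5:180830707-180831006 on the plus strand, holds AGGTCA on the opposite strand from position 7 after the start. The FIRRE window, at chrX:131830594-131830893 on the minus strand, holds CACGTG from position 3 after the start. Whether these starts are used by the assembled models is not known from the tables. The search covered AGGTCA, the related retinoid receptor element AGTTCA, and the palindrome CACGTG, on both strands. Among the 12 higher hosts 2, 2 and 1 windows held these, and among the 4 lower hosts 0, 0 and 1. Among the 57 other hosts with a window the numbers were 11 (19.3%), 3 (5.26%) and 4 (7.02%). Over all 27305 promoter windows of the same length the shares were 13.9%, 10.5% and 7.43%. Most windows of the higher and lower hosts held none of the searched elements, unlike most of those printed above.

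The rows at the LINC01094 locus summed to 0.0739 FPKM without and 16.4 with ATRA in shScr cells, against 0.00938 and 4.74 in shTFEB cells. Both vehicle groups were near 0, and the highest model there was TCONS_l2_00020587, at 0, 9.92, 0 and 3.13 FPKM in the same order. At the HEIH locus the sum was 8.27 without and 52.2 with ATRA in shScr cells, against 10.5 and 37.0 in shTFEB cells. HEIH and LINC00847 overlap, and rows of LINC00847 are part of the HEIH sum. The LINC00847 sums were 4.43, 17.8, 4.62 and 15.1 FPKM. The intergenic models at this pair, TCONS_00010587 and TCONS_l2_00022687, summed to 1.54, 10.8, 0 and 0 FPKM. Of these, 1 was at least 2-fold higher and 1 lower with ATRA in shScr cells. In shTFEB cells the rise at this pair was in other rows. The rows at FIRRE, a noncoding RNA of the X chromosome, were lower with ATRA. They summed to 8.39 without and 1.79 with ATRA in shScr cells, against 10.3 and 3.47 in shTFEB cells. The leading model at FIRRE, TCONS_l2_00030601, was at 5.79, 0, 7.58 and 1.69 FPKM.

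The intergenic models were low. Their highest-group FPKM had a median of 1.44, with quartiles of 0.792 and 3.06, against 8.46 for the 15795 NM rows that reached 0.5 FPKM, 3.36 for the 476 NR rows chosen by the same distance and level, and 1.43 for the assembled models near NM rows. In a model of 950 bases, 0.5 FPKM stood for about 29.1, 30.3, 34 and 26.5 fragments in the order given. Of the 1079 models, 394 stayed under 1 FPKM in every group, 418 reached 2 FPKM and 67 reached 10 FPKM. At the level limit, TCONS_l2_00009811 (0.50 FPKM in its highest group) was just inside and TCONS_l2_00030130 (0.4995 FPKM) just outside. At the distance limit, TCONS_l2_00026188, 5.035 kb from HILPDA, was inside and TCONS_00029706, 4.95 kb from NFAM1, outside.

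Their loci had a median span of 6.253 kb (range 0.33 to 478.242 kb) and lay a median of 37.125 kb from the nearest NM row, with 425 at 5 to 25 kb, 388 at 25 to 100 kb and 266 farther. They fell on 718 merged loci, that is, sets of overlapping members, of which 505 held 1 member and 213 held up to 8. Chromosome 1 had 98 of them, chromosome 2 had 86 and chromosome 7 had 74. A value of 0.5 FPKM or more was listed in all 4 groups for 362 models (33.5%), in 3 groups for 123, in 2 for 292 and in 1 for 302. The numbers at 0.5 FPKM or more were 601 without and 756 with ATRA in shScr cells, against 625 and 721 in shTFEB cells, higher in both ATRA groups. The median FPKM of all 1079 followed the same order, at 0.614, 0.853, 0.638 and 0.776.

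Cell markers were read beside the labels. The granule protein gene MPO was at 3871 FPKM without and 662 with ATRA in shScr cells, against 2462 and 594 in shTFEB cells. The granule genes PRTN3, AZU1 and CTSG and the surface gene MS4A3 were also at least 2-fold lower with ATRA in each line, while ELANE, another granule gene, was at or near 0 in every group (0.0456 FPKM at most). Of the remaining promyelocyte markers, CEBPE, a transcription factor gene of granulocyte maturation, went the other way, at 27.2, 224, 32.3 and 193 FPKM, and CD33 was at 23.4, 29.3, 25.3 and 25.6. Of 10 genes of the retinoid response, 9 were at least 2-fold higher with ATRA in each line, and RARB was listed at 0. The erythroid genes HBB and HBA1 were at 0, and ALAS2 was at 0.0465 FPKM at most. The epithelial markers EPCAM and KRT18 reached 6.05 and 29.7 FPKM, while KRT8 was listed at 0 except for 2.27 FPKM in shTFEB ATRA, and the fibroblast genes COL1A1 and COL1A2 stayed at 0.19 FPKM or less. Of the lymphoid markers, CD3D reached 3.76 FPKM, MS4A1 was at 0, and CD3E, CD3G and PAX5 were at 0.61 FPKM or less. The part of these markers in the results below was not tested, and fewer cells of a type and less RNA per cell cannot be told apart in such bulk samples.

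The 4 groups held few highly abundant intergenic models. TCONS_00029072, on chromosome 21 at 9826938 to 9827584 and 0.674 kb from an NR row, was at 1006 FPKM without and 242 with ATRA in shScr cells, against 282 and 729 in shTFEB cells. It was high in shScr vehicle and shTFEB ATRA and low in the other two, an order that neither treatment nor hairpin follows. The short arm of chromosome 21, on which it lies, holds ribosomal RNA genes and other repeated sequence, and how fragments with several possible places were assigned is not given in the sources used here, so its values are uncertain. This model alone was 1006 of the 2923 FPKM summed over all members in shScr vehicle. Without it the sums were 1917, 2616, 1928 and 2297 FPKM, higher in both ATRA groups, whereas with it they were 2923, 2858, 2210 and 3026.

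The second most abundant model, TCONS_00020209, overlaps the noncoding gene GIHCG on chromosome 12 and was at 78.9 FPKM without and 122 with ATRA in shScr cells, against 85.5 and 122 in shTFEB cells. Its deposited status was LOWDATA, as it was for 106 of the 1079 models in all 4 groups, among them TCONS_l2_00000963 and TCONS_l2_00028784, described below. The third was TCONS_l2_00022045 on chromosome 4, which overlaps no other row. It was at 74.4, 22.3, 82.3 and 44.1 FPKM, lower with ATRA in both lines, by 3.34-fold under shScr and 1.87-fold under shTFEB. The lower and upper bounds deposited for it in shScr vehicle, 23.8 and 29.2, do not enclose its FPKM. Other models described below share this, such as TCONS_00028131, at 54.9 FPKM in shScr ATRA with bounds of 7.01 and 10.5. Across the members above 0 with status OK the bounds enclosed the FPKM in 83.0% to 87.5%, so they are not used here as errors.

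Several abundant models had nearly equal values in the 4 groups. TCONS_l2_00022750, which overlaps the pseudogene PDCD6P1 on chromosome 5, was at 41.7, 39.0, 42.3 and 37.7 FPKM. TCONS_00012702, 5.87 kb from NUDT3 on chromosome 6, was at 33.8, 39.9, 34 and 34.8 FPKM. Both stayed within 1.18-fold of their vehicle value with ATRA. TCONS_l2_00021878, a locus of 185 kb on chromosome 4, was instead at 9.78, 44.8, 10.5 and 33.2 FPKM, high in both ATRA groups. TCONS_00018718, at LINC00999 on chromosome 10, was at 22.6, 39.6, 18.3 and 32.4 FPKM, which is 1.75-fold and 1.77-fold above vehicle.

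ATRA separated the groups most, and more intergenic models were higher than lower with it. With log2 ratios taken after adding 0.5 FPKM and a mark at 2-fold, 269 of 1079 (24.9%) were higher and 135 (12.5%) lower with ATRA in shScr cells. Over all 19455 models that reached 0.5 FPKM, 16.7% were higher and 16.8% lower (33.5% apart), and the median log2 ratio was -0.05 against 0.25 for the intergenic models. In shTFEB cells 209 (19.4%) were higher and 131 (12.1%) lower, against 14.4% and 13.4% of all models (27.8% apart), with medians of 0.09 and -0.06. The NR rows chosen by the same distance and level did not share this excess of higher models. Of these 476, 63 were higher and 74 lower in shScr cells, and 41 and 63 in shTFEB cells. The 580 assembled models within 5 kb of NM rows shared it in shScr cells, with 118 higher (20.3%) and 61 lower (10.5%). In shTFEB cells 85 of them (14.7%) were higher and 70 (12.1%) lower, near the shares of all models. Intergenic models that overlap an NR row were higher in 68 and lower in 54 of 351 in shScr cells, and those more than 5 kb from NR rows in 194 and 76 of 694. These differences between classes were not tested.

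**Figure D1:**
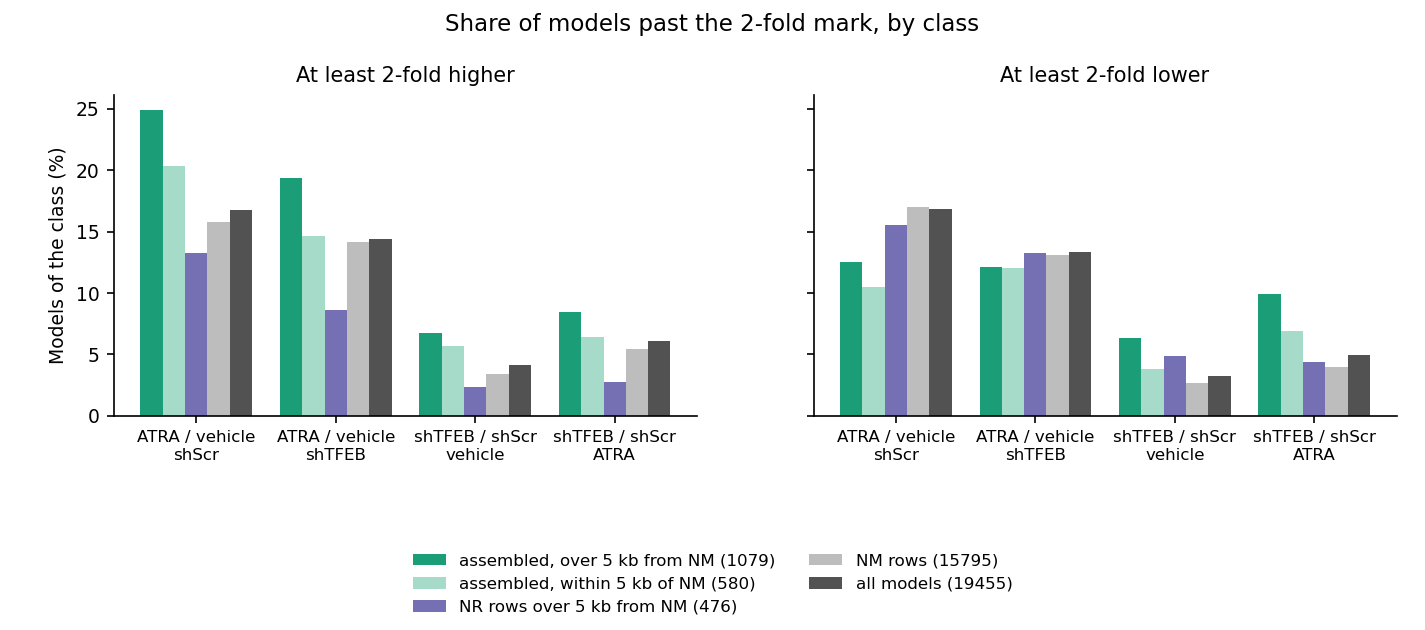
Share of models (%) at least 2-fold higher (left) and lower (right) in 4 comparisons, with 1 bar per class of model and its number in the legend. For ATRA in shScr cells the intergenic assembled models stand at 24.9% higher and 12.5% lower, and all models at 16.7% and 16.8%.

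Across the lines, 121 models (11.2%) were at least 2-fold higher with ATRA in both, against 9.99% of all models, and 55 (5.10%) were lower in both, against 8.96%. Opposite directions were seen in 20 (1.85%), against 1.03% of all models, and 2 of these 20 were above 0 in all 4 groups. Of the 404 models apart in shScr cells, 250 were listed at 0 in at least 1 group, among 415 such models. The comparisons in the 2 lines share no library.

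**Figure D2:**
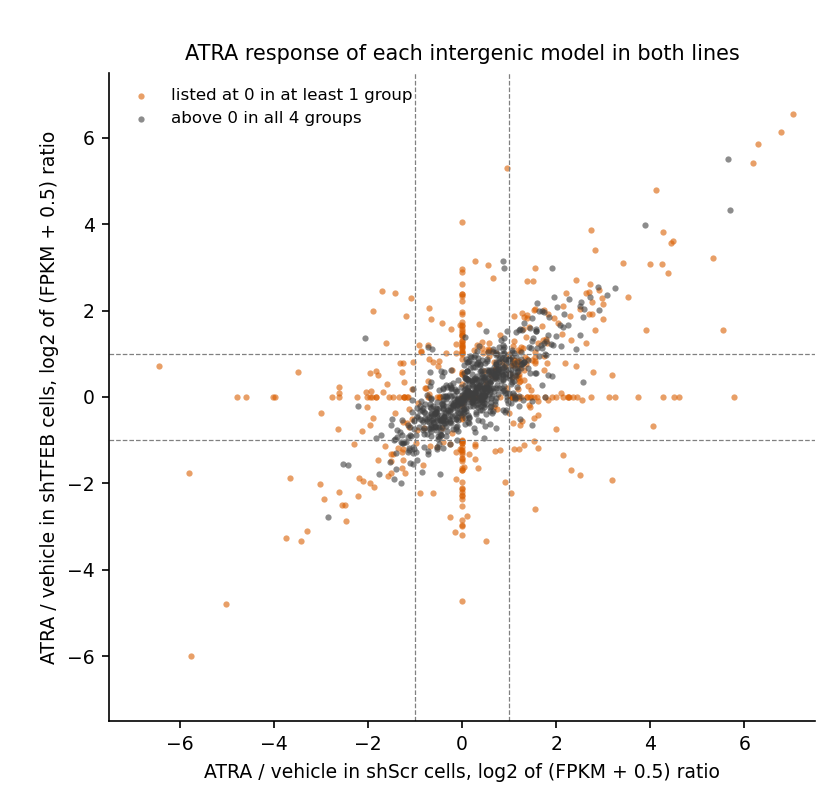
Log2 ratio of ATRA over vehicle in shScr (x axis) and shTFEB cells (y axis), 1 point per intergenic model, with dashed lines at the 2-fold mark; models of the Y chromosome are not drawn. Models above 0 in all 4 groups (grey) lie along the diagonal, and many models listed at 0 in a group (orange) lie on the lines where 1 of the 2 ratios is 0.

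Among models with a value above 0 in both groups compared, the largest ATRA ratio in shScr cells after adding 0.5 FPKM was that of TCONS_00024667, on chromosome 16 at 55461463 to 55470523. It was at 0.148 FPKM without and 33.4 with ATRA in shScr cells, against 0.253 and 14.6 in shTFEB cells (log2 ratios of 5.71 and 4.33). Both vehicle groups were low and both ATRA groups high, and the ATRA level was 2.29-fold lower in the group labelled shTFEB. The nearest coding gene, MMP2, a gelatinase 42.6 kb away, went the other way, at 3.43, 0.355, 6.79 and 0.336 FPKM. TCONS_00000489, on chromosome 1 at 25436949 to 25439611, was at 0.083 FPKM without and 28.8 with ATRA in shScr cells, against 0.0534 and 24.6 in shTFEB cells. After adding 0.1 instead of 0.5 FPKM its log2 ratio in shScr cells, 7.30, was above the 7.07 of TCONS_00024667, so the order of these 2 depends on the pseudocount. Its nearest coding gene, the splicing factor gene SYF2 at 109 kb, differed little, at 25.6, 31.0, 23.0 and 28.1 FPKM.

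Other models higher in both lines lay near genes that were higher as well. TCONS_00013110, on chromosome 7 at 70972 to 71835, was at 0.0232, 9.63, 0 and 6.56 FPKM. FAM20C, a kinase of secreted proteins 121 kb from it, was at 1.94, 61.0, 3.0 and 49.7 FPKM. TCONS_00028130, on chromosome 20, was at 0.0101, 3.82, 0.0257 and 2.22 FPKM, and TCONS_00028131, which overlaps it, at 0, 54.9, 0 and 34.5. CD93, a surface receptor of myeloid cells 94.7 kb from TCONS_00028131, was at 9.5, 83.6, 7.13 and 45.7 FPKM. In this set the model and the gene were both high in the 2 ATRA groups and lower in shTFEB ATRA than in shScr ATRA.

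TCONS_00026383, 52.2 kb from NFATC1 on chromosome 18, was at 0.250, 6.66, 0.114 and 3.0 FPKM, while NFATC1, a transcription factor of calcium signalling, stayed at 0.136 FPKM or less. TCONS_00019559, 7.12 kb from MOB2 on chromosome 11, was listed at 0 in shScr vehicle, was at 10.7 FPKM with ATRA there, and at 0.110 and 6.91 FPKM in shTFEB cells. MOB2 itself was at 8.51, 7.29, 8.36 and 7.54 FPKM. TCONS_00027203, 7.57 kb from CYP4F8 on chromosome 19, was at 0.141, 1.93, 0.0799 and 4.12 FPKM. So models with a large difference lay near genes that differed in the same direction, in the opposite direction or hardly at all.

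**Figure D3:**
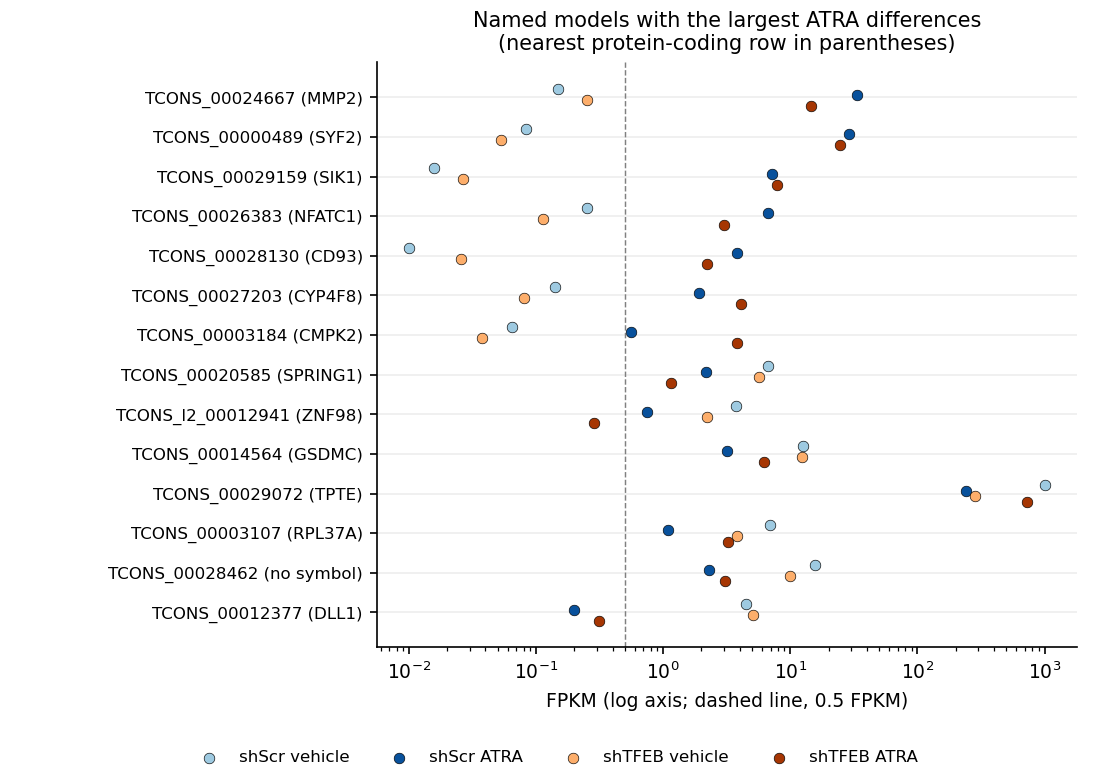
FPKM (log axis) of 14 named models in the 4 groups, 1 point per group, with the nearest protein-coding row in parentheses and a dashed line at 0.5 FPKM. The upper 7 models are higher in both ATRA groups (dark points) than in both vehicle groups, and the lower 7 are lower with ATRA in both lines, except TCONS_00029072, which is higher with ATRA in shTFEB cells.

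Lower with ATRA in both lines was TCONS_00012377, on chromosome 6 at 170470885 to 170475667, at 4.50 FPKM without and 0.197 with ATRA in shScr cells, against 5.11 and 0.312 in shTFEB cells. Its neighbour TCONS_l2_00024541 was at 4.38, 0, 4.62 and 0.10 FPKM. DLL1, a Notch ligand gene 113 kb from the latter, was at 3.59, 2.41, 7.75 and 8.56 FPKM, with no such fall. TCONS_00028462, on chromosome 20, was at 15.6, 2.29, 9.90 and 3.07 FPKM, lower by 6.84-fold under shScr and 3.23-fold under shTFEB. TCONS_l2_00012941, 92 kb from the zinc finger gene ZNF98, was at 3.72, 0.750, 2.22 and 0.284 FPKM. TCONS_00020585, 39.9 kb from SPRING1 on chromosome 12, was at 6.70, 2.16, 5.64 and 1.15 FPKM. TCONS_00007947, 37.6 kb from PIGG on chromosome 4, was at 1.66, 0, 2.40 and 0.253 FPKM. In each of these 6 models both vehicle groups were above both ATRA groups.

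TCONS_00014564 spans 329 kb on chromosome 8 and was at 12.5 FPKM without and 3.16 with ATRA in shScr cells, against 12.4 and 6.17 in shTFEB cells. It was lower with ATRA by 3.95-fold under shScr and by 2.02-fold under shTFEB, while its vehicle values were nearly equal. TCONS_00003107, 17.9 kb from the ribosomal protein gene RPL37A on chromosome 2, was at 6.87, 1.10, 3.84 and 3.23 FPKM. It was lower with ATRA in shScr cells by 6.26-fold and in shTFEB cells by 1.19-fold. The rows of its locus summed to 10.5, 4.05, 10.3 and 6.02 FPKM, so that the 2 lines were closer to each other by locus than by this model.

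A model's value also depends on the rows that overlap it, because fragments are divided among overlapping models. Of the 1079 models, 848 overlapped another TCONS or NR row. Of these, 42.2% were listed at 0 in at least 1 group, against 24.7% of the 231 that overlapped none. The pair at GIHCG shows how the 2 readings differ: TCONS_00020811 was at 26.7 FPKM without and 0 with ATRA in shScr cells, against 31.4 and 0 in shTFEB cells, whereas TCONS_00020209 at the same locus was higher with ATRA. Summed over the locus the values were 106, 122, 117 and 122 FPKM. GIHCG is a long noncoding RNA gene, and its own NR row was listed at 0 in all 4 groups.

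At NEAT1 the rows were high together. TCONS_l2_00005321 was at 9.78 FPKM without and 46.0 with ATRA in shScr cells, against 7.99 and 31.5 in shTFEB cells. TCONS_l2_00005320 was at 0, 22.7, 4.46 and 14 FPKM, and all rows together summed to 20.4, 107, 21.3 and 74.4 FPKM. The sum was high in both ATRA groups, and the 0 of TCONS_l2_00005320 in shScr vehicle was not a 0 of the locus. On chromosome 1, TCONS_l2_00000963 was at 0, 64.9, 0 and 46.1 FPKM, and with the overlapping TCONS_l2_00002391 the locus was at 11.8, 91.4, 12.3 and 66.2. At the pseudogene LSP1P5 on the same chromosome, TCONS_l2_00002186 was at 0, 39.0, 0 and 28.4 FPKM, and the locus with its other rows at 6.66, 44.1, 5.79 and 34.

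Elsewhere 1 group stood apart, as at FRG1HP and LINC01138. TCONS_l2_00028784, at the pseudogene FRG1HP on chromosome 9, was at 42.7 FPKM without and 0 with ATRA in shScr cells, against 26.6 and 43.7 in shTFEB cells. The locus summed to 48.5, 6.21, 31.4 and 49.0 FPKM, low in shScr ATRA alone. TCONS_l2_00001502, at LINC01138 on chromosome 1, was at 27.2 FPKM in shScr ATRA and 0 in the other groups, and its locus, with all rows, was at 5.74, 32.3, 5.90 and 6.17. TCONS_00008984 on chromosome 4 was instead lower with ATRA in both lines, at 27.4, 0, 22.8 and 6.37 FPKM. Its locus was lower in both as well, at 37.3, 4.26, 32.6 and 8.64. FRG1HP and LSP1P5 are pseudogene copies of other genes, and how fragments were divided between such copies is not given in the sources used here, so these values are uncertain.

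**Figure D4:**
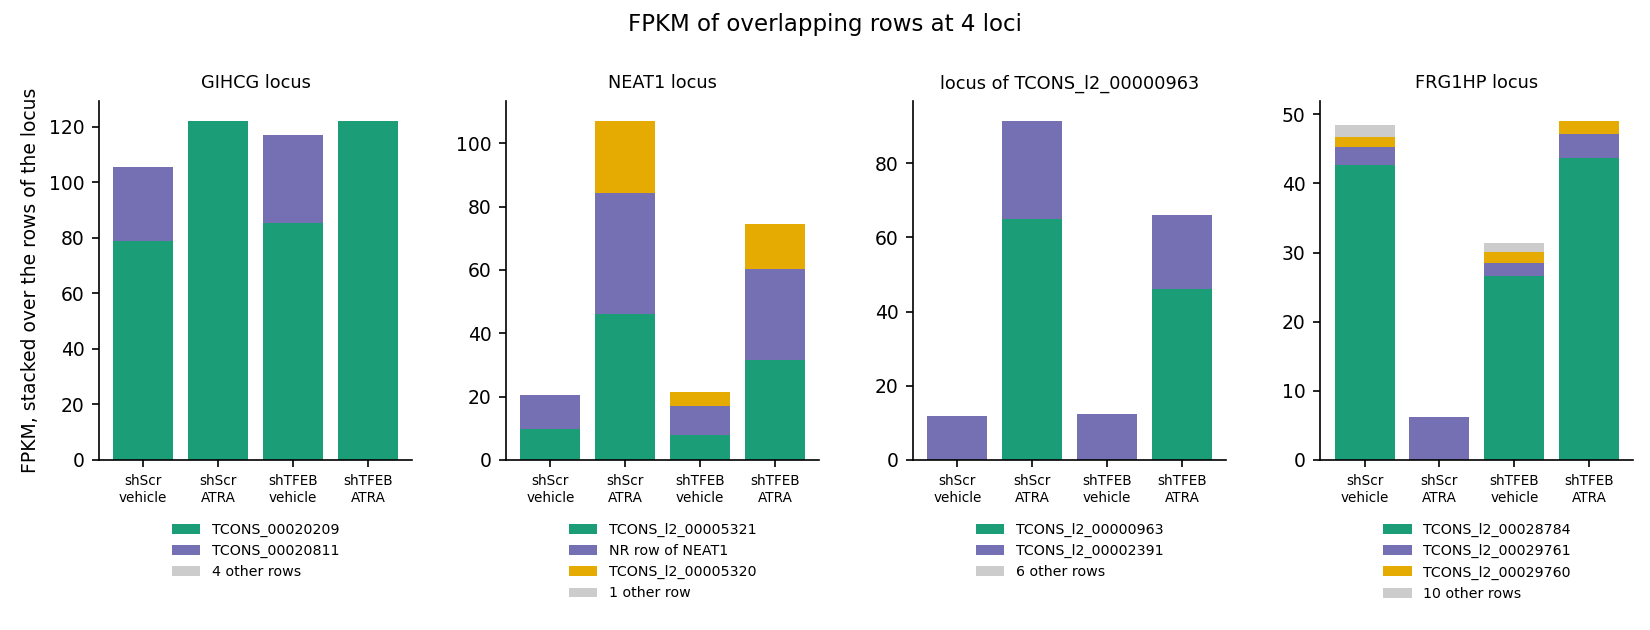
FPKM of the rows at 4 loci, stacked, in the 4 groups on the x axis; colours are the leading rows and grey the remaining rows. At GIHCG the total stays between 106 and 122 FPKM while its purple part is present in the vehicle groups alone, and at NEAT1 the total is higher in both ATRA groups.

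Counted by merged locus, with the members summed, 180 of 718 loci (25.1%) were higher and 75 (10.4%) lower with ATRA in shScr cells. In shTFEB cells 145 (20.2%) were higher and 68 (9.47%) lower. Of all models taken singly, 16.7% were higher and 16.8% lower in shScr cells, and 14.4% and 13.4% in shTFEB cells. In both lines 96 of 718 loci were higher, 35 lower and 6 opposite, against 9.99%, 8.96% and 1.03% of all models taken singly. The excess of higher over lower was therefore present by locus too, while opposite directions were less frequent by locus than among all models. At the 213 loci with several members, 87 of 235 models past the mark in shScr cells had a locus sum that was not past it in that direction. In 26 of these loci members were past the mark in both directions.

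Some neighbouring loci had the same direction. Within 50 kb of each other lay 192 loci in 81 clusters, 22 of which held at least 3 loci. All loci were at least 2-fold higher with ATRA in shScr cells in 3 of these 22 and lower in 1. Near SIK1, a salt-inducible kinase gene on chromosome 21, TCONS_00029159, TCONS_00029160 and TCONS_00029046 together were at 0.233 FPKM without and 19.2 with ATRA in shScr cells, against 0.119 and 23.0 in shTFEB cells. SIK1 was at 1.72, 4.67, 2.08 and 8.56 FPKM, and both it and the cluster were higher with ATRA in each line. TCONS_00029159 itself was at 0.0157, 7.15, 0.0267 and 7.80 FPKM.

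Near TBC1D19 on chromosome 4, TCONS_00008015, TCONS_00008016 and TCONS_00008017 summed to 0.541, 10.7, 0.0849 and 7.52 FPKM. The models near OR4F5 on chromosome 1 summed to 0.662, 5.07, 0.626 and 2.98 FPKM. The cluster near DLL1, whose members TCONS_00012377 and TCONS_l2_00024541 are given above, also holds TCONS_00012029, at 1.45, 0, 1.5 and 0 FPKM, and summed to 10.3, 0.197, 11.2 and 0.412. Models of a cluster do not overlap but may be pieces of the same transcript, which was not tested.

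Loci were then set beside the nearest coding gene. For 491 merged loci that gene reached 0.5 FPKM. Where the locus was at least 2-fold higher with ATRA in shScr cells (134 loci), the gene was higher too at 47 (35.1%) and lower at 11, whereas 35 of 310 loci past neither mark (11.3%) had a higher gene. Where the locus was lower (47 loci), the gene was lower at 16 (34%), against 16.8% of the loci past neither mark. In shTFEB cells the gene was higher at 44 of 110 higher loci (40.0%) and lower at 11 of 39 lower ones (28.2%), against 12.3% and 11.1% of the loci past neither mark. Spearman's rho between the ratios of locus and gene, across loci that share their libraries and some genes, was 0.37 in each line.

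By distance, rho in shScr cells was 0.42 at 5 to 25 kb (246 loci), 0.36 at 25 to 100 kb (148 loci) and 0.22 beyond 100 kb (97 loci). In shTFEB cells it was 0.39, 0.43 and 0.19. Unannotated ends of the coding gene could lie among the near models, and their part was not tested.

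**Figure D5:**
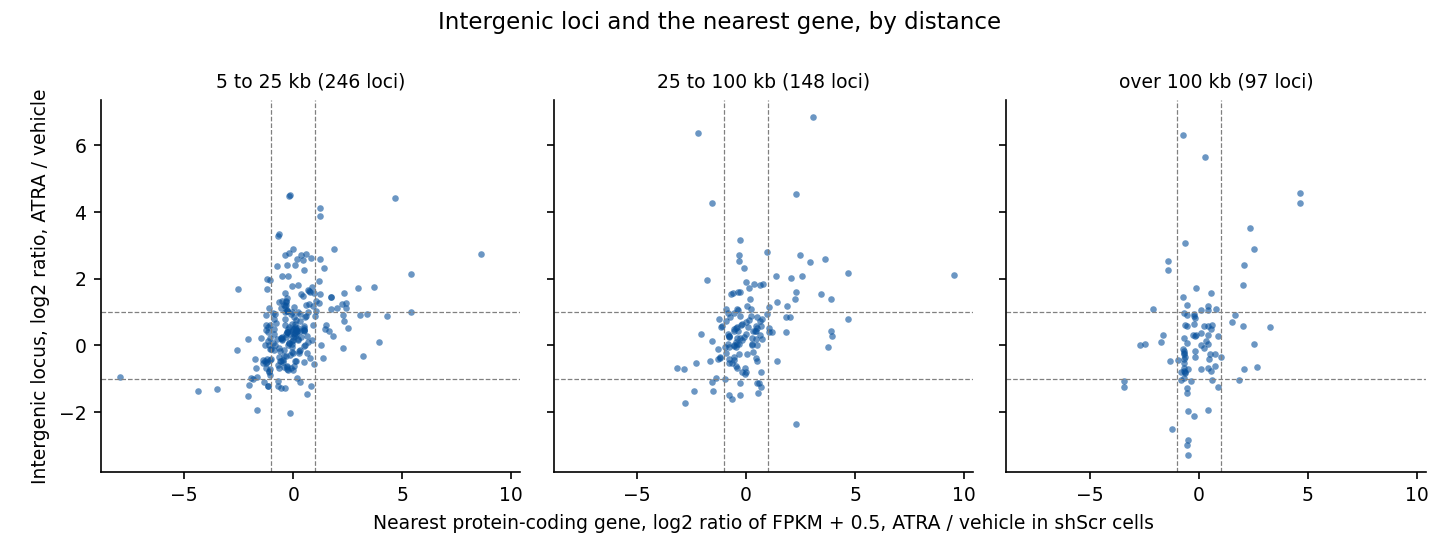
Log2 ratio of ATRA over vehicle in shScr cells for each merged locus (y axis) and its nearest protein-coding gene (x axis), in 3 panels by distance, with dashed lines at the 2-fold mark. The upper right corner, where both are higher, holds 24 loci at 5 to 25 kb, 17 at 25 to 100 kb and 6 beyond.

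The comparison of hairpins asks how the models differ when TFEB is targeted. TFEB itself was at 1.20 FPKM without and 19.4 with ATRA in shScr cells, against 1.35 and 8.44 in shTFEB cells. The target was therefore lower with the hairpin under ATRA and not under vehicle, which limits what the vehicle comparison can show. Under vehicle 73 of 1079 models were at least 2-fold higher and 68 lower in the group labelled shTFEB (13.1% apart), against 4.15%, 3.27% and 7.42% of all models. Under ATRA 91 were higher and 107 lower (18.4%), against 6.09%, 4.92% and 11%. Of the 580 assembled models within 5 kb of NM rows, 9.48% were apart under vehicle and 13.3% under ATRA. Of all 1789 NR rows that reached 0.5 FPKM these shares were 12.1% and 16.2%. The 476 NR rows more than 5 kb from NM rows were apart in 7.14% under each treatment. The median log2 ratios of the 1079 models were 0.00 and -0.04.

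Much of this was found in models listed at 0. Under vehicle, 125 of the 141 models apart were listed at 0 in at least 1 group, and 16 were above 0 in all 4. Under ATRA these numbers were 172 and 26 of 198. Members that overlap no other row were apart in 18 of 231 under vehicle (7.79%) and in 21 under ATRA (9.09%), near the shares of all models. Summed by locus, 28 of 718 were higher and 30 lower under vehicle (8.08% apart), and 43 and 56 under ATRA (13.8%). Of the 99 models apart under vehicle at loci with several members, 79 had a locus sum that was not past the mark in that direction. In both treatments 9 models were higher, or 0.834%, against 0.833% of all models, and 13 were lower, or 1.20%, against 0.545%.

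Among the models above 0 in both vehicle groups, the highest ratio of shTFEB to shScr was that of TCONS_l2_00030698, a model of 88.2 kb on the X chromosome, at 0.445 FPKM without and 0 with ATRA in shScr cells, against 5.37 and 13 in shTFEB cells. It was high in both shTFEB groups. The rows of its locus summed to 14.7, 19.2, 27.4 and 44.1 FPKM, also higher in both shTFEB groups. TCONS_00005658, 7.67 kb from the kinase gene TNIK on chromosome 3, was at 0.870, 4.15, 3.21 and 3.18 FPKM, so that shScr vehicle alone was low. TCONS_00024659, 12.4 kb from the homeobox gene IRX3 on chromosome 16, was at 0.441, 0.361, 2.04 and 1.07 FPKM. IRX3 was at 15.6, 2.18, 19.2 and 2.00 FPKM, which followed the treatment and not the hairpin. TCONS_l2_00012283, 17.3 kb from ACTL9 on chromosome 19, was at 0.603, 0.294, 2.40 and 0.338 FPKM, high in shTFEB vehicle alone.

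Among the models lower in the group labelled shTFEB vehicle, beside TCONS_00029072, was TCONS_00008386 on chromosome 4, at 2.32, 2.46, 0.369 and 1.75 FPKM. TCONS_00005961, 147 kb from SATB1 on chromosome 3, was at 1.69 FPKM in shScr vehicle and 0.360 in shTFEB vehicle, and was listed at 0 with ATRA. TCONS_00004873 on chromosome 2, 14.9 kb from the phosphate transporter gene SLC20A1, was at 1.44, 0, 0.204 and 0.526 FPKM. TCONS_00005961 and TCONS_00004873 stayed under 2 FPKM in every group.

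Under ATRA, the models higher in shTFEB cells by the largest ratios included some that followed the nearest gene and some that did not. TCONS_00003184, 7.02 kb from CMPK2 on chromosome 2, was at 0.0648 FPKM without and 0.555 with ATRA in shScr cells, against 0.0374 and 3.78 in shTFEB cells. CMPK2, a mitochondrial nucleotide kinase gene induced by interferon, was at 3.24, 28.5, 2.58 and 149 FPKM, and model and gene were both highest in shTFEB ATRA. TCONS_00011573, 59.8 kb from TNFAIP3 on chromosome 6, was at 0, 0.964, 0.0297 and 3.67 FPKM. TNFAIP3, which encodes a ubiquitin-editing enzyme that limits NF-kappa-B signalling, was instead higher in shScr ATRA, at 4.30, 52.2, 6.92 and 31.9 FPKM. TCONS_00016991, 20.7 kb from VSIG4 on the X chromosome, was at 0.846, 2.10, 1.86 and 6.26 FPKM. VSIG4, a complement receptor gene of macrophages, was at 0.216, 7.05, 0.186 and 10.4 FPKM.

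Lower in shTFEB cells under ATRA was TCONS_00022629, 39.0 kb from DLK1 on chromosome 14, at 3.33, 10.2, 2.84 and 1.62 FPKM. It was high in shScr ATRA alone, and DLK1, a gene related to Notch ligands, stayed at 0.254 FPKM or less. At 3 loci near ANKRD36B on chromosome 2 shScr ATRA was highest as well. TCONS_00004345 was at 0.270, 4.07, 0.622 and 0.920 FPKM, TCONS_00004346 at 0.781, 3.08, 0.783 and 0.693, and TCONS_l2_00015866 at 2.77, 9.21, 1.83 and 2.91. The rows at the locus of TCONS_l2_00015866 summed to 10.3, 11.8, 7.28 and 3.86 FPKM. By that sum the locus differed little with ATRA in shScr cells and was lower with it in shTFEB cells. ANKRD36B was at 5.27, 7.35, 4.32 and 3.48 FPKM, highest in shScr ATRA too. TCONS_l2_00015589, 37.1 kb from METTL21A on the same chromosome, was at 0.0893, 4.22, 0 and 1.26 FPKM.

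The difference of the 2 ATRA responses was at least 2-fold, with the larger ratio in shTFEB cells, for 124 models and with the smaller ratio there for 157 (26% in all), against 7.21%, 7.37% and 14.6% of all models. Of these 281 models, 46 were above 0 in all 4 groups. By locus sum 58 and 85 of 718 loci were past the mark. Among the models with the larger ratio in shTFEB cells were TCONS_00029072, TCONS_00003184 and TCONS_00003107, given above, the last of them with a smaller difference by locus, and TCONS_00002275 on chromosome 1, at 4.16, 2.33, 1.55 and 4.09 FPKM. On the other side stood TCONS_00022629, TCONS_00004345, TCONS_00004346 and TCONS_00005658, whose values are given above.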

How the data were processed

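The deposited values are FPKM made by the authors with TopHat, Cufflinks and Cuffdiff on hg19, per the submitters' processing notes; versions, how the 2 samples of a group were combined, and the origin of the TCONS models are not given in the sources used here. Each table lists 65986 models with 1 FPKM, bounds and a status, and 0 columns of single samples. Groups follow the treatment and knockdown fields of the labels.

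Models of at least 0.5 FPKM were compared as log2((FPKM + 0.5)/(FPKM + 0.5)) with a mark at 2-fold (Python 3.11.15, pandas 2.3.3, numpy 2.4.6, scipy 1.17.1), a scale that understates changes of low models. Named were the 12 most abundant models, the 6 largest ratios each way per comparison (at least 1 FPKM, status OK, above 0 in both groups), the 5 largest differences of responses each way and 6 models listed at 0 in a group. A few of these, among them 1 model of the Y chromosome, are not reported here, and members of described loci were added after their values were seen. Models, lists and rules were chosen with earlier results of these data known. Gene values sum a symbol's RefSeq rows, and those of the nearest genes include its NR rows as well as its NM rows. Of 41159 RefSeq accessions, 39841 (96.8%) matched a symbol of GRCh38.p14. Relative depth, read from steps between low values, was 1.05 in shScr cells with ATRA, and 1.17 without and 0.911 with ATRA in shTFEB cells, with shScr vehicle as 1. The code was tested on simulated data. Alternatives were other pseudocounts, level and distance limits, rescalings, locus sums, status and bounds.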

Additional observations from a re-analysis of the deposited data

Results flagged for a closer look

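TCONS_00029072, the most abundant intergenic model, was more than 2-fold lower with ATRA under shScr but more than 2-fold higher with it under shTFEB, and the 2 log2 ratios differed by 3.42. Its values were 1006 FPKM without and 242 with ATRA in shScr cells, against 282 and 729 in shTFEB cells. The difference was not tested, since each group has 1 value. It lies on the short arm of chromosome 21 among repeated sequence, so these values are uncertain.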

How the results depend on the processing

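The counts of models past the 2-fold mark are given in the order ATRA in shScr cells (404 as reported), ATRA in shTFEB cells (340), hairpins under vehicle (141), hairpins under ATRA (198) and difference of responses (281), with those within 1.5 times left out. A pseudocount of 1 FPKM gave 229, 193, 78, 108 and 176, and one of 0.1 FPKM gave 227 and 309 for the hairpins. Stricter limits test fewer models, so shares are given too. At least 2 FPKM left 191, 167, 56, 89 and 120 of 418. These were 45.7%, 40%, 13.4%, 21.3% and 28.7%, against 37.4%, 31.5%, 13.1%, 18.4% and 26% as reported, so no share fell. More than 25 kb from NM rows left 252 and 211 for ATRA, 125 for hairpins under ATRA and 174 for the difference. Of the 654 models tested there, these were 38.5%, 32.3%, 19.1% and 26.6%. More than 5 kb from NR rows too left 223 for ATRA in shTFEB cells, 78, 116 and 166 of 694. These were 32.1%, 11.2%, 16.7% and 23.9%, lower than reported for the hairpins and the difference. Member sums per locus gave 255, 213, 58, 99 and 143 of 718. Chosen after seeing the data, sums of all TCONS and NR rows gave 249, 207, 48, 81 and 120 of 718, models above 0 in all groups 154, 113, 16, 26 and 46 of 664, and models that overlap no other row 87, 70, 18, 21 and 41 of 231. The limit on values above 0 removes models that went to or from 0. Higher models outnumbered lower ones with ATRA in each line under all of these. Neither rescaling moved the median of all models by over 0.1 on the log2 scale or the higher share of calls by 10 percentage points. With genes within 25 kb alone, 52.9% of 17 lower loci had a lower gene in shScr cells. Of 56 named ratios no direction changed, and 5 of 224 alternative values fell under the mark, all with a pseudocount of 1 FPKM. No paired analysis was possible because each group has 1 deposited value. Depth limits the models near 0.5 FPKM, about 26.5 to 34 fragments in 950 bases.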
